A study of Homo sapiens with 26 samples.

Results

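DLD1 is an established human colorectal cancer cell line, and 496 protein-coding genes on its chromosome 3 are described here. They were chosen by chromosome, biotype and level, with a mean of at least 2 fragments per kilobase, scaled to library size (FPKM), over the 10 DLD1 libraries. They are 496 of the 1076 protein-coding genes that the table lists on chromosome 3, and of 8903 protein-coding genes at that level on all chromosomes. With the arms split at 91 Mb, 258 lie on the short arm (3p) and 238 on the long arm (3q). Chromosome 3 was singled out because its genes were lower in 1 large clone, L1, so the values of L1 are a description and carry no test. OXNAD1, OGG1 and HRH1 lay just above the level limit at 2.001, 2.012 and 2.044 FPKM, and HDAC11, C3orf62 and LRCH3 just below it at 1.998, 1.963 and 1.949 FPKM. From L1 minus the diploid mean, those 6 genes had log2 differences of -0.09, -0.30, -0.28, -0.60, -0.29 and -0.23.

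The study made tetraploid (4N) cells from 3 cancer lines and sorted the 4N clones by cell and nuclear size. In DLD1, division was blocked for 20 hr with dihydrocytochalasin B, an inhibitor of actin assembly, at 1.5 µg/mL, followed by 48 hr of recovery and cloning from single cells. There were 4 large 4N clones (L1 to L4), 3 small 4N clones (S1 to S3), and 3 diploid (2N) libraries, of which 1 was the uncloned parental line and 2 were 2N clones (2N1 and 2N2). HCT116, also colorectal, and CAL51, from a breast tumour, had 4N clones made with 75 µM of the myosin inhibitor blebbistatin for the same time, with 6 and 4 of them sequenced. Each library other than the parental ones is 1 clone, so the spread between 4N libraries of a group is a spread between clones. The spread of the 3 2N libraries also takes in the uncloned parental line. The DLD1 libraries held between 23.5 M and 36.0 M gene reads each, and 1 read in a gene of 1 kb was worth 0.0268 to 0.0400 FPKM. Of the epithelial markers examined, EPCAM, CDH1, KRT8, KRT18, KRT19 and CDX2 were present in all 10 (EPCAM at 244 to 354 FPKM, CDX2 at 38.5 to 81.8 FPKM). VIL1, also an epithelial marker, was low and uneven, at 0.202 to 8.99 FPKM. PTPRC, a blood cell marker, was at no more than 0.0033 FPKM.

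The number of copies of a gene sets how many templates a cell can transcribe, and for most genes the level of messenger RNA follows that number at least in part. A chromosome or arm that is missing from some or all cells of a clone is therefore seen in RNA as many neighbouring genes that are lower together by a similar fraction. Chromosome 3 carries VHL and BAP1 on its short arm, which act as tumour suppressors in kidney and eye, and TFRC and ECT2 on its long arm, which serve iron uptake and cell division. FPKM is a share of the RNA of a library, so a difference of 0 means the same share as in 2N cells, not the same amount per cell. A lower level in every cell of a clone and a stronger loss in some of its cells cannot be told apart in bulk RNA. DNA copy number was not analysed here.

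Promoters of 3 members are shown because these genes have unlike sequence at their start and were all lower in L1. The sequences are those of RefSeq on GRCh38.p14, from 250 bases before to 50 bases after the start, 5′ to 3′ on the strand of the gene, with every CG pair in capitals. UBE2E2, which encodes a ubiquitin-conjugating enzyme (chr3:23202848-23203147, plus strand), has the most CG pairs of the matched 3p members averaging at least 10 FPKM, 53 in 300 bases, together with TOP2B, which has as many and differed by -0.47 in L1 and -0.03 in S3.
UBE2E2: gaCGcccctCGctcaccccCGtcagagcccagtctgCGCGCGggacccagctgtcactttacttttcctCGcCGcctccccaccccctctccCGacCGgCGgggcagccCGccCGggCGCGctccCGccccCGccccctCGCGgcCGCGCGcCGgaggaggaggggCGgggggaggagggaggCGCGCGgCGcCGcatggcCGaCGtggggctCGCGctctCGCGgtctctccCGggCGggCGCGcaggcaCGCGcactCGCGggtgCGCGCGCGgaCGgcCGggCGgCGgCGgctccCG
SHISA5, which encodes a membrane protein of the endoplasmic reticulum (chr3:48504761-48505060, minus strand), has the fewest of that group, 5.
SHISA5: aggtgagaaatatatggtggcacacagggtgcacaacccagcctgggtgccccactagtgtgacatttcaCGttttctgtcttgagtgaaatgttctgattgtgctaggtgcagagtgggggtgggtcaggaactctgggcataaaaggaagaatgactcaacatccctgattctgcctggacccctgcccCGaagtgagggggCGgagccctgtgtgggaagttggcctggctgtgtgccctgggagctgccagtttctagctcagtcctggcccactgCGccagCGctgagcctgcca
TOPBP1, a scaffold of the DNA damage response (chr3:133661892-133662191, minus strand), lies on 3q and has 24.
TOPBP1: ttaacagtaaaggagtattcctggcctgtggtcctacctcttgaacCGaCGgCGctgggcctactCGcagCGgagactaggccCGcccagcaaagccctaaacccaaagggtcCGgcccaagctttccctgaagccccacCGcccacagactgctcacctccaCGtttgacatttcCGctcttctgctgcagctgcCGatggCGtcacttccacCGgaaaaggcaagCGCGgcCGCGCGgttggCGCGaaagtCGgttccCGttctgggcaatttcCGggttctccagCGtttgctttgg

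L1 differed from the 2N mean by -0.53 in UBE2E2, by -0.65 in SHISA5 and by -0.99 in TOPBP1, on the log2(FPKM + 1) scale. S3 differed by -0.62, -0.46 and 0.10 in the same genes, so the 3q gene was not lower there. In the promoter set used, an entry was matched to 435 of the 496 members, and 373 of those began within 1000 bases of the start of the gene in the deposited table. Those 373 held a median of 27 CG pairs, against 14 over 27305 promoters of all genes. Unlike the members, the 27305 were not limited by biotype, level or chromosome. Gaps between the 2 sets, here and in the motifs below, therefore cannot be assigned to chromosome 3. In 3 groups of similar size by CG pairs, the members had median L1 differences of -0.30 (1 to 23 pairs, 132 genes), -0.29 (24 to 31 pairs, 125 genes) and -0.27 (32 to 57 pairs, 116 genes). The S3 differences of the 3p members in those groups were -0.31, -0.28 and -0.25. The differences between groups were small beside the spread of single genes, whose L1 quartiles ran from -0.44 to -0.19 in the CG-poor group. The motif TATAAA, on either strand, was in 6.17% of the 373 and 11.95% of all promoters, and the motif CCGGAAG, to which ETS factors bind, was in 22.3% and 10.7%. The 2 motifs cannot overlap each other. Members with TATAAA had a median L1 difference of -0.23 and members without it -0.29, and the pair for CCGGAAG was -0.28 and -0.29.

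In L1 nearly the whole of chromosome 3 was lower than in 2N cells. The 496 members had a median log2 difference of -0.28 with quartiles of -0.40 and -0.17, and 463 of them (93.3%) were below 0. The difference was at or under -0.2 in 350 members (70.6%), against a background of 19.0% over all 8903 genes, and nothing is read from that gap because L1 chose the chromosome. Both arms took part, with medians of -0.30 on 3p and -0.25 on 3q. The members took 3.85% of all reads in L1 and 4.63% to 4.76% in the 3 2N libraries. In 249 members (50.2%) L1 was the lowest of all 10 DLD1 libraries, and off chromosome 3 this held for 8.60% of 8407 genes.

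The small clone S3, which the choice of the chromosome did not use, was lower on 3p and not on 3q. Its 3p members had a median of -0.28 with quartiles of -0.44 and -0.14, and 234 of 258 (90.7%) were below 0. Its 3q members had a median of 0.03, and 106 of 238 (44.5%) were below 0. Off chromosome 3, 44.9% of genes were below 0 in S3. At or under -0.2 were 172 of the 3p members (66.7%) and 33 of the 3q members (13.9%), against 16.9% of all genes in S3. S3 was the lowest of the 10 libraries in 93 members of 3p (36.0%) and in 7 of 3q (2.94%), and off chromosome 3 in 6.54% of 8407 genes. This split by arm was noticed after the values were seen and rests on 1 clone, so it has no replicate test.

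The other 5 4N clones stayed near the 2N level on both arms. Their medians over all 496 members lay between -0.05 and 0.02, with L2 at 0.02, L3 at -0.01, L4 at -0.05, S1 at -0.03 and S2 at 0.01. On 3p these clones ran from -0.06 to 0.02 and on 3q from -0.04 to 0.03. The 3 2N libraries lay within 0.004 of their own mean on the whole chromosome, and no more than 9.48% of members were at or under -0.2 in any of them. On 3p the medians of L1 and S3 stood apart from those of all 8 other DLD1 libraries, and on 3q that of L1 did.

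**Figure D1:**
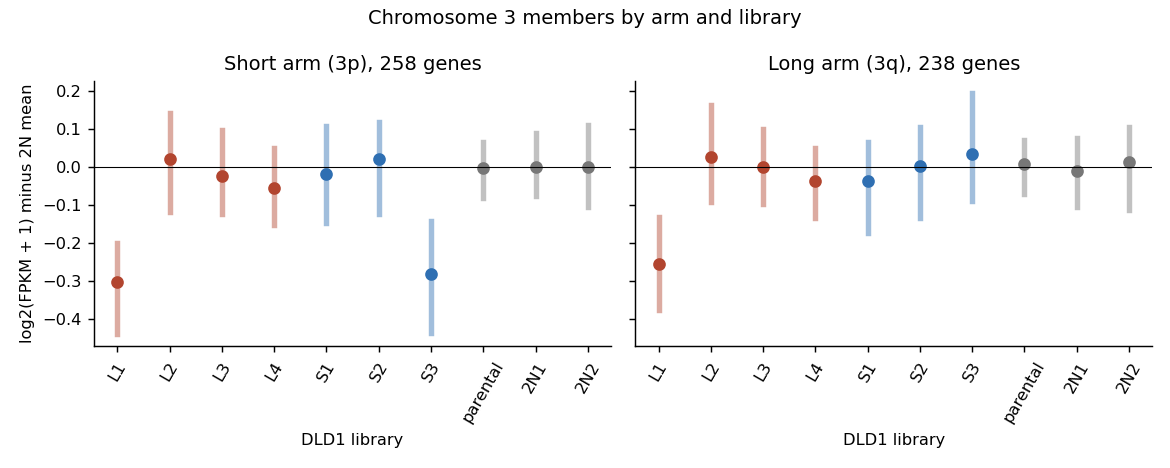
Median (point) and middle 50% of genes (bar) of log2(FPKM + 1) minus the 2N mean for each DLD1 library, with 3p on the left and 3q on the right; large clones are red, small clones blue and 2N libraries grey. On 3p, L1 (-0.30) and S3 (-0.28) lie below the other 8 libraries, and on 3q only L1 (-0.25) does.

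Relative to other chromosomes, chromosome 3 was the lowest of 23 in L1, and the next, chromosome 21, had a median of -0.04. In S3 it was the second lowest at -0.13, after chromosome 14 at -0.17. In the other clones the lowest chromosome was another one: chromosome 10 in L2 (-0.33), chromosome 7 in L4 (-0.30) and chromosome 5 in S1 (-0.30). L3 and S2 had no chromosome below -0.05.

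**Figure D2:**
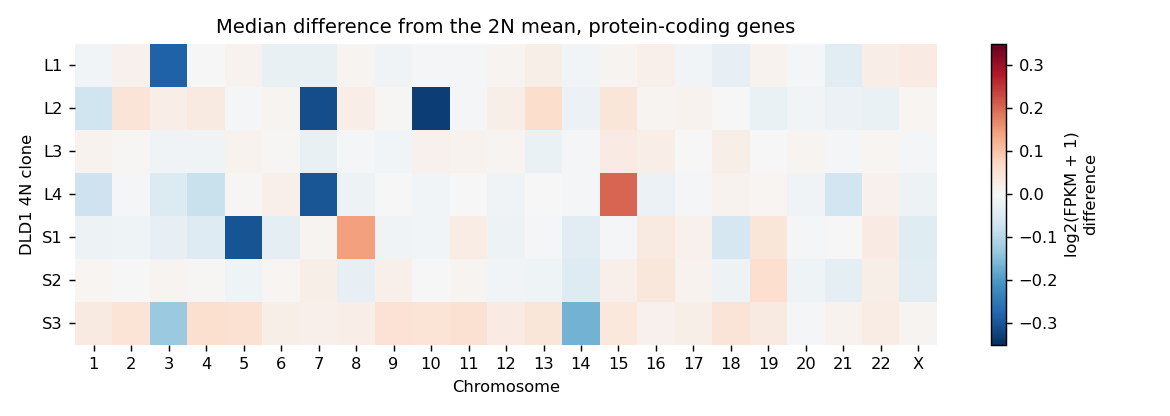
Median log2(FPKM + 1) difference from the 2N mean of the 8903 protein-coding genes at the level limit, by chromosome (columns) and DLD1 4N clone (rows); blue is lower than 2N and red higher. Chromosome 3 is dark blue in L1 (-0.28), pale blue in S3 (-0.13) and near white in the other 5 clones.

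Along the chromosome, L1 was lower throughout and S3 was lower up to near the arm split. In windows of 10 Mb, all 20 medians of L1 lay between -0.44 and -0.22. In S3 the 8 windows up to 80 Mb lay between -0.38 and -0.20, and the 11 windows from 90 Mb on lay between -0.05 and 0.12. Between them, the window from 80 to 90 Mb had a median of 0.04 over 5 genes. GBE1, the glycogen branching enzyme, starts at 81.5 Mb and differed by -0.26 in S3, with 6.22 FPKM in S3 against 7.58, 7.25 and 8.13 FPKM in the parental, 2N1 and 2N2 libraries. CHMP2B, an endosomal sorting protein, starts at 87.2 Mb and differed by -0.08, and CGGBP1, at 88.1 Mb, by 0.06. Few members lie in that stretch, so the place where S3 meets the 2N level is not resolved further than these genes.

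**Figure D3:**
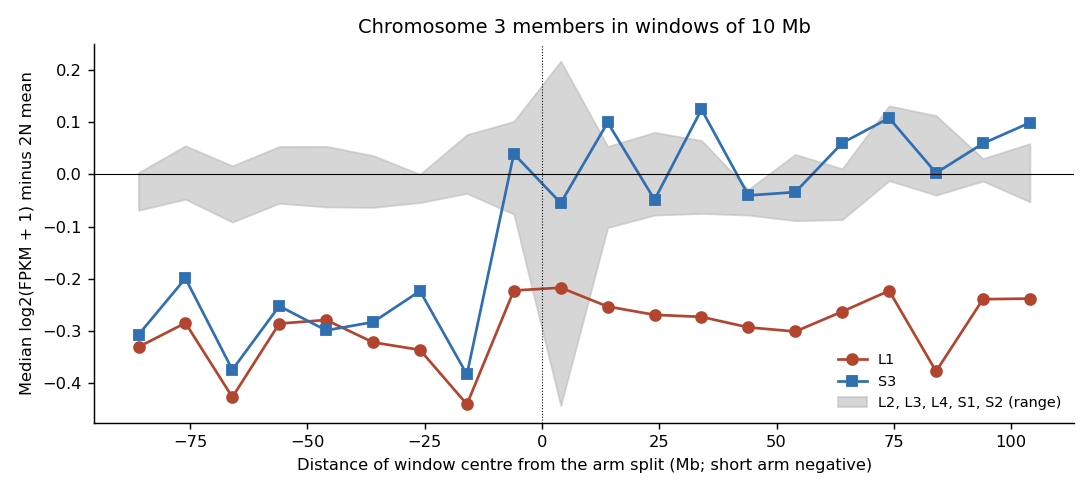
Median log2(FPKM + 1) minus the 2N mean in windows of 10 Mb (y) against the distance of the window centre from the arm split (x, in Mb, short arm negative), for L1 (red), S3 (blue) and the range of the other 5 4N clones (grey band). L1 stays between -0.44 and -0.22 throughout, and S3 is between -0.38 and -0.20 before the last short-arm window, at 0.04 in that window, and between -0.05 and 0.12 on the long arm.

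S1 had 1 window below -0.2, at 90 to 100 Mb, with a median of -0.44 over 8 genes. There CPOX, an enzyme of haem synthesis, had 33.2 FPKM in S1 against 88.1, 107 and 66.5 FPKM in the 2N libraries, a difference of -1.34. CLDND1, a claudin-like membrane protein, had 13.01 FPKM in S1, against 30.9 ± 4.69 FPKM in the 2N libraries (SD, n = 3), a difference of -1.17. PROS1, the anticoagulant protein S, differed by -1.14. CMSS1, in the same window, was at 0.08 in S1, so the low values in S1 were not shared by all genes of the window.

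As a ratio of FPKM without the added 1, L1 was lower by nearly the same fraction at all expression levels. Among the 217 members averaging at least 10 FPKM, the median ratio to the 2N level was 0.786 in L1, with 0.776 on 3p and 0.819 on 3q. In S3 it was 0.799 on 3p and 1.00 on 3q, and in the other 5 clones it lay between 0.942 and 1.01 over both arms. By level, L1 had ratios of 0.794 at 2 to 5 FPKM, 0.797 at 5 to 10, 0.788 at 10 to 30 and 0.786 at 30 or more. On the log2(FPKM + 1) scale the same classes gave -0.24, -0.28, -0.31 and -0.34, since the added 1 shrinks the differences of low genes. For scale, 3 copies in place of 4 give 0.75 by arithmetic, or -0.42 on the log2 scale. On the log2(FPKM + 1) scale, 58 of the 217 lay at or below -0.42 in L1. The added 1 shrinks those differences, so 58 is not a count of ratios below 0.75.

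L1 and S3 were both set against the same 2N libraries above. Against the other clones of their own size class, which share no library, the 3p medians were -0.29 for L1 minus L2 to L4 and -0.28 for S3 minus S1 and S2. In 230 of the 258 3p members (89.1%) both differences were below 0, against 53 of 238 (22.3%) on 3q. Taken singly, L1 was below 0 in 241 3p members and S3 in 245, and on 3q in 216 and 58. These single counts largely fix the joint ones, so the joint counts show no agreement of the 2 clones gene by gene. Across the 3p members the 2 differences had a Pearson r of 0.092 and a Spearman rho of 0.0062, so over all 3p members the size of the difference in 1 clone said little of its size in the other. Against the 2N mean, MAPKAPK3, TGFBR2 and HYAL2 were among the lowest 3p members averaging at least 10 FPKM in both clones. In TGFBR2 and HYAL2 the shared library 2N2 was the highest, at 34.0 and 20.0 FPKM. Against their size class these 3 genes differed by -1.49, -0.44 and -0.43 in L1. There RHOA, at -0.54, was lower than TGFBR2 and HYAL2. In S3 the 3 genes differed by -0.60, -0.73 and -0.58 from S1 and S2. On 3q the r was -0.0013 and the rho 0.113. These values run across genes of a few libraries and are descriptions.

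**Figure D4:**
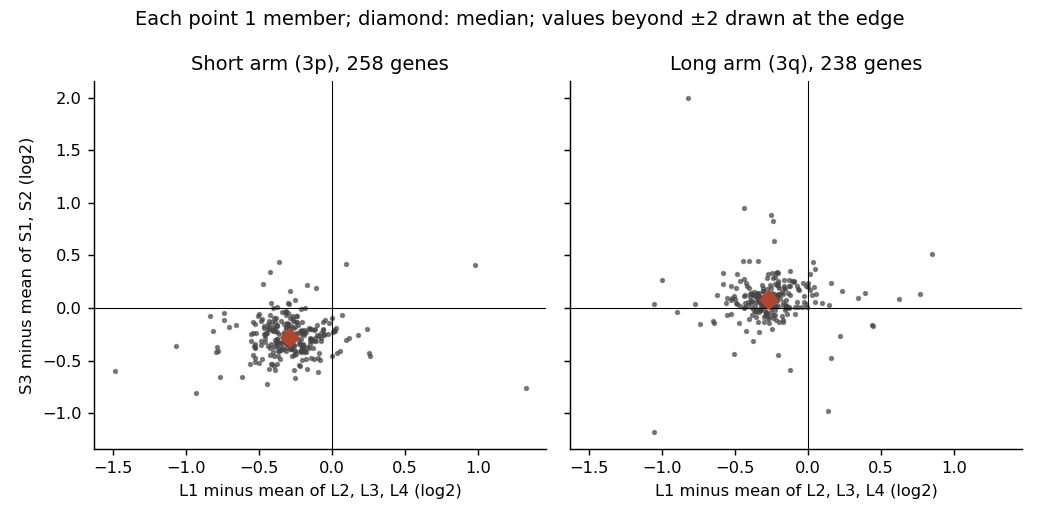
Each point is 1 member, with L1 minus the mean of L2 to L4 (x) and S3 minus the mean of S1 and S2 (y), both on the log2(FPKM + 1) scale, for 3p (left) and 3q (right); the diamond is the median of both. The 3p cloud lies low and to the left (medians -0.29 and -0.28), and the 3q cloud lies to the left only (-0.27 and 0.08).

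Of the tumour suppressors and chromatin genes of 3p, 24 were members, all 24 were below 0 in L1 and 21 in S3, with medians of -0.27 and -0.28. Of all 3p members, 96.9% were below 0 in L1 and 90.7% in S3, with medians of -0.30 and -0.28, so the list did as the arm did. VHL, which marks hypoxia-inducible factors for breakdown (ENSG00000134086, GRCh38 chromosome 3, 10141008 to 10152220), had 11.7 FPKM in L1, 14.2, 14.1 and 14.5 FPKM in L2 to L4, 13.3, 14.7 and 12.8 FPKM in S1 to S3, against 14.4, 13.2 and 16.3 FPKM in the parental, 2N1 and 2N2 libraries. L1 and S3 were the lowest of the 10. The difference from the 2N mean was -0.30 in L1 and -0.18 in S3. BAP1, a histone deubiquitinase, had 24.7 FPKM in L1 and 22.2 in S3, against 27.1 ± 1.20 FPKM in 2N libraries (SD, n = 3). SMARCC1, a chromatin remodelling subunit, had 28.5 FPKM in L1 and 27.3 in S3, against 33.9 ± 2.18 FPKM. In those 3 genes both clones lay below every 2N library. The same held in WDR82 of this list, at 27.9 FPKM in L1 and 30.8 in S3, against 38.4 ± 1.77 FPKM. In CTDSPL, also of this list, it held for S3 only. CTDSPL had 26.2 FPKM in L1 and 20.1 in S3, against 32.2, 27.4 and 24.4 FPKM in the parental, 2N1 and 2N2 libraries.

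The signalling and transcription list had 21 members with medians of -0.39 in L1 and -0.30 in S3. Its 14 members on 3p had a median of -0.41 in S3, and its 7 on 3q had -0.04. For this and the lists below, an S3 median over both arms depends on how many members lie on each arm. It is not to be read as a difference between functions. CTNNB1, beta-catenin of WNT signalling and cell junctions (ENSG00000168036, 41194741 to 41260096), had 27.5 FPKM in L1, 39.8, 38.3 and 36.1 FPKM in L2 to L4, 30.8, 35.4 and 27.9 FPKM in S1 to S3, against 38.0, 38.8 and 45.4 FPKM in the parental, 2N1 and 2N2 libraries. L1 and S3 were again the lowest, at differences of -0.54 and -0.53. MAPKAPK3, a kinase downstream of p38, had the lowest difference in L1 among members averaging at least 10 FPKM, at -1.69, with 10.2 FPKM in L1 and 22.7 to 37.2 FPKM in all other libraries. TGFBR2, a TGF-beta receptor, differed by -0.78 in L1 and -0.91 in S3, but 2N2 at 34.0 FPKM stood well above the parental and 2N1 libraries at 18.6 and 15.95 FPKM, so the 2N mean rests largely on that clone. PIK3CA, a lipid kinase gene of 3q, was under the level limit and is not a member.

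The cytoskeleton, adhesion and cilia list had 20 members with medians of -0.34 in L1 and -0.22 in S3. In S3 its 11 members on 3p had a median of -0.28 and its 9 on 3q -0.04. RHOA, a GTPase that controls actin contraction (ENSG00000067560, 49359145 to 49412998), had 227 FPKM in L1, 423, 299.9 and 284 FPKM in L2 to L4, 266, 337 and 273 FPKM in S1 to S3, against 354, 341 and 304 FPKM in the parental, 2N1 and 2N2 libraries. L1 was the lowest, and L3, L4, S1 and S3 were below all 2N libraries too. IFT57, a subunit of the intraflagellar transport complex on 3q, differed by -0.31 in L1 and 0.51 in S3. It also differed by -0.19, -0.29 and -0.15 in L2 to L4 and by 0.22 and 0.29 in S1 and S2. CD47, the neighbouring surface signal that blocks uptake by macrophages, differed by -0.52 in L1 and 0.95 in S3. In L2 to L4 CD47 was at -0.36, -0.37 and -0.13, and in S1 and S2 at -0.04 and 0.66. The low values of these 2 genes were thus shared by other large clones. CD47 had 11.1 FPKM in S3 and 3.39 FPKM in L1, against 4.94, 6.09 and 4.88 FPKM in the parental, 2N1 and 2N2 libraries.

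The ribosome and translation list had 24 members, of which 10 on 3p had a median of -0.34 in L1 and -0.41 in S3, and 14 on 3q had -0.24 and 0.00. RPL29, a protein of the large ribosomal subunit on 3p, had 415 FPKM in L1, 534, 421 and 559 FPKM in L2 to L4, 469, 463 and 356 FPKM in S1 to S3, against 483, 609 and 475 FPKM in the parental, 2N1 and 2N2 libraries. RPL24, of the same subunit and on 3q, had 245 FPKM in L1 and 268 FPKM in S3, against 263, 341 and 260.3 FPKM. In RPL29 both clones were below every 2N library, and so were L3, S1 and S2. In RPL24 L1 was and S3 was not. L2, L3, S1 and S2 were below every 2N library in RPL24 too, at 259.7, 244, 250 and 222 FPKM. Low values in these 2 genes were therefore not particular to L1 and S3. Ribosomal protein genes have many processed copies in the genome, so their counts may hold or lack reads that belong to copies.

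The mitochondria and metabolism list had 30 members with medians of -0.39 in L1 and -0.13 in S3. In S3 its 14 members on 3p had a median of -0.24 and its 16 on 3q -0.08. UQCRC1, a core subunit of respiratory complex III on 3p, had 49.3 FPKM in L1, 75.1, 64.9 and 74.7 FPKM in L2 to L4, 65.9, 66.3 and 59.3 FPKM in S1 to S3, against 76.0, 83.5 and 69.2 FPKM in the parental, 2N1 and 2N2 libraries. L1 was the lowest and S3 the second lowest. ALAS1, the first enzyme of haem synthesis, differed by -1.12 in L1 and -0.49 in S3, and TKT, transketolase of the pentose phosphate pathway, by -0.50 and -0.20. The protein turnover list had 18 members with medians of -0.30 in L1 and -0.06 in S3, where 8 on 3p had -0.34 and 10 on 3q had 0.13. There the proteasome subunit gene PSMD6 on 3p differed by -0.39 in L1 and -0.43 in S3, and PSMD2 on 3q by -0.02 and 0.17.

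Of the growth and cancer genes of 3q, 27 were members, with 23 below 0 in L1 and 10 in S3, at medians of -0.25 and 0.05. Of all 3q members, 89.5% were below 0 in L1 and 44.5% in S3, with medians of -0.25 and 0.03, close to those of the list. EIF4G1, a scaffold for starting translation, had 124 FPKM in L1 and 149 FPKM in S3, against 155, 151 and 134 FPKM in the parental, 2N1 and 2N2 libraries. RAB7A, a GTPase of late endosomes, had 72.4 FPKM in L1, 87.5, 87.3 and 86.3 FPKM in L2 to L4, 77.2, 89.6 and 96.8 FPKM in S1 to S3, against 93.2, 87.0 and 101 FPKM. In both genes L1 was the lowest of the 10 libraries. TFRC, the transferrin receptor, was an exception at 72.4 FPKM in L1, against 75.4, 76.2 and 57.3 FPKM in the 2N libraries, a difference of 0.07.

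The replication, repair and mitosis list had 24 members with medians of -0.26 in L1 and -0.05 in S3. In S3 its 9 members on 3p had a median of -0.15 and its 15 on 3q 0.10. TOPBP1 on 3q (ENSG00000163781, 133598175 to 133662380), whose promoter is printed above, had 8.15 FPKM in L1, 19.8, 18.1 and 16.3 FPKM in L2 to L4, 18.9, 17.1 and 18.4 FPKM in S1 to S3, against 18.1, 15.7 and 17.8 FPKM in the parental, 2N1 and 2N2 libraries. Its ratio in L1 was lower than that of the chromosome as a whole, and the other 9 libraries lay close together. ECT2, which starts cytokinesis through RHOA, had 30.2 FPKM in L1, 44.9, 45.1 and 37.4 FPKM in L2 to L4, 48.0, 42.2 and 40.6 FPKM in S1 to S3, against 43.2, 42.9 and 39.2 FPKM. MCM2, of the replicative helicase, had 41.0 FPKM in L1 and 55.0 FPKM in S3, against 52.7, 60.2 and 45.4 FPKM. SMC4, a condensin subunit, differed by -0.19 in L1 and 0.25 in S3. In all 4 genes L1 was below every other library.

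**Figure D5:**
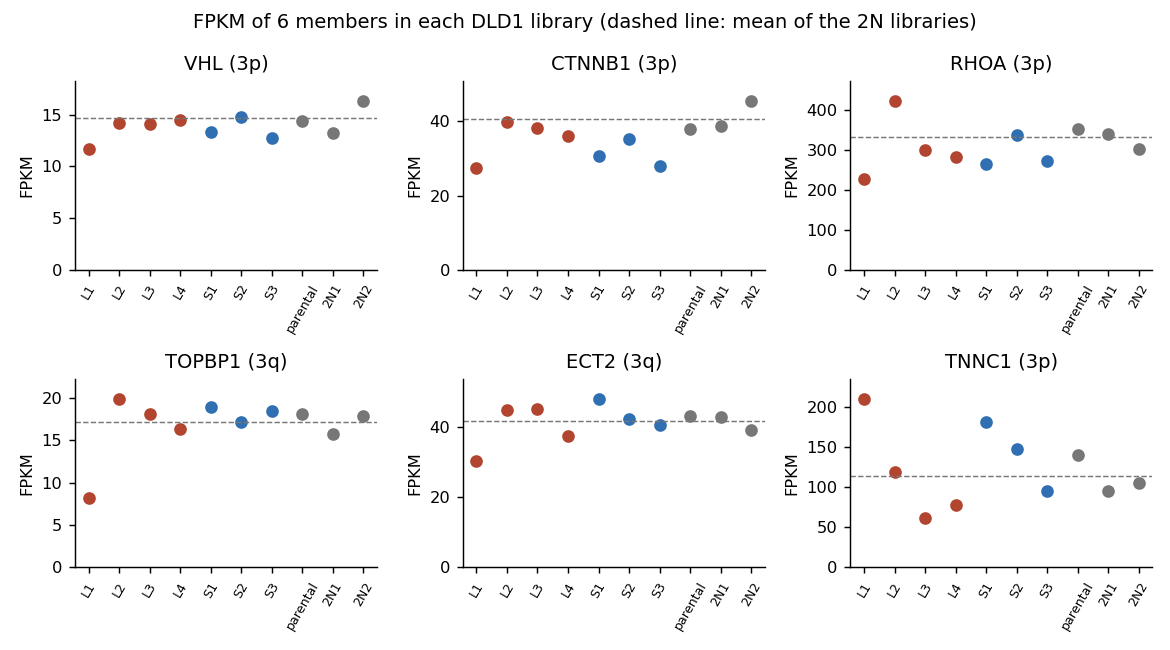
FPKM (y) of 6 members in each of the 10 DLD1 libraries (x), large clones in red, small clones in blue and 2N libraries in grey, with the 2N mean as a dashed line. VHL and CTNNB1 on 3p are lowest in L1 and S3, TOPBP1 and ECT2 on 3q are lowest in L1 alone, and TNNC1 is highest in L1 at 211 FPKM.

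The secretory pathway list stood closest to the 2N level in L1, with 19 members and medians of -0.14 in L1 and 0.23 in S3. In S3 its 7 members on 3p had a median of -0.07 and its 12 on 3q 0.27. SEC61A1, the channel of the endoplasmic reticulum, differed by 0.11 in L1 and 0.44 in S3, and RPN1, of the oligosaccharyl transferase, by -0.06 and 0.26. ARF4, a GTPase of Golgi traffic on 3p, had 133 FPKM in L1 and 186 FPKM in S3, against 175, 123 and 141 FPKM in the parental, 2N1 and 2N2 libraries. STT3B, a catalytic subunit of the same transferase on 3p, was low in S3 at 32.9 FPKM and had 52.2 FPKM in L1, against 60.8, 49.2 and 85.9 FPKM. The nuclear transport and envelope list had 5 members with medians of -0.21 in L1 and 0.03 in S3. In S3 its 3 members on 3p had a median of -0.13 and its 2 on 3q 0.09. Its 3p member NUP210, a pore membrane protein, differed by -0.18 in L1 and 0.44 in S3. NUP210 varied among the 2N libraries as well, at 46.6, 31.9 and 33.2 FPKM.

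Of the 217 members averaging at least 10 FPKM, 10 were at or above 0 in L1. TNNC1, the cardiac and slow muscle troponin C (52451102 to 52454070), had 211 FPKM in L1, 119.7, 62.0 and 77.7 FPKM in L2 to L4, 182, 147 and 95.9 FPKM in S1 to S3, against 140.1, 95.6 and 106 FPKM in the parental, 2N1 and 2N2 libraries. ATP2C1, the Golgi calcium pump, had 55.7 FPKM in L1 and 21.2 to 46.0 FPKM in the other libraries. L1 was the highest of 10 in both genes. The others were PLOD2, SEC61A1, POC1A, TFRC, HES1, CPOX, AMOTL2 and GYG1, at differences of 0.01 to 0.22. At the low end after MAPKAPK3 came TM4SF1 at -1.26, SEMA3F at -1.13, ALAS1 and TOPBP1, then TMEM43, TGFBR2, CMTM6, NR1D2 and HYAL2 at -0.79 to -0.73. TM4SF1 also differed by -0.58, 0.06 and -0.25 in L2 to L4 and by -0.86, -1.13 and -0.73 in S1 to S3. The parental library itself was at -0.65, since 2N1 and 2N2 had 82.8 and 97.1 FPKM against its 45.3 FPKM. SEMA3F, a secreted guidance cue, varied widely, with 3.46 FPKM in L1, 2.75, 5.68 and 8.45 FPKM in L2 to L4, 32.4, 5.41 and 16.1 FPKM in S1 to S3, against 11.8, 6.96 and 8.18 FPKM. In S3, 9 of the 120 3p members averaging at least 10 FPKM were at or above 0.

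Genes of chromosome 3 that are not protein-coding were left out by the rule. At the same level there were 51, with medians of -0.16 on 3p (21 genes) and 0.04 on 3q (30 genes) in L1, and of -0.37 and -0.05 in S3. Over both arms L1 was at -0.09, below the other 5 4N clones, whose medians ran from 0.00 to 0.14. The difference between these genes and the protein-coding ones was not tested.

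Whether chromosome 3 members differ by clone size was tested without L1, with limma on log2(FPKM + 1) over all 26 libraries. Between the large clones L2 to L4 and the small clones S1 to S3, 1 of 496 members passed an adjusted p of 0.05, while 74 of 14835 genes did, which is 0.499%. The member was MUC20, a mucin of 3q, with 1.07, 1.38 and 1.75 FPKM in L2 to L4, against 6.42, 2.17 and 4.19 FPKM in S1 to S3. Its difference, large minus small, was -1.06 ± 0.21 on the log2 scale (SE; limma adjusted p = 0.0335), the groups did not overlap, and L1 had 2.03 FPKM. MUC20P1, a pseudogene copy near MUC20 in the table, may share reads with it, and the call was lost in 10 of the 13 alternatives that tested it, so it is uncertain. No member of the 10 gene lists passed in either direction. The members had a median of 0.05, with 0.08 on 3p and -0.01 on 3q, against 0.00 over all genes, and without S3 the 3p median was -0.02.

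Between the 6 4N clones other than L1 and the 3 2N libraries, limma called 0 of 496 members and 1 of 14835 genes (0.00674%) at an adjusted p of 0.05. At an unadjusted p under 0.05 there were 7 members and 451 genes, and voom on the recovered reads also called 0 members. By the moderated statistic the lowest members included PCCB, TM4SF1, SEMA3B and MLF1, at -0.32 ± 0.12, -0.58 ± 0.25, -1.10 ± 0.48 and -0.30 ± 0.14 (SE), none past the threshold (limma adjusted p = 1 for each). The highest were GOLGB1, WDR5B, COPB2, TMF1 and HES1, at 0.35 ± 0.14, 0.21 ± 0.12, 0.20 ± 0.12, 0.23 ± 0.14 and 0.42 ± 0.26, with the same adjusted p. In SEMA3B, 2N2 had 33.7 FPKM against 11.2 and 12.2 FPKM in the parental and 2N1 libraries, so its 2N mean rests largely on 2N2. The 4N clones other than L1 had 2.85 to 10.4 FPKM. In TM4SF1 the parental library, at 45.3 FPKM, lay within the range of those clones, 32.0 to 74.6 FPKM. PCCB, a subunit of propionyl-CoA carboxylase, had 6.54, 7.85 and 7.03 FPKM in L2 to L4 and 7.40, 7.08 and 8.84 FPKM in S1 to S3, against 8.77, 11.0 and 8.94 FPKM in the parental, 2N1 and 2N2 libraries. Of the list members, none passed in either direction. The median over members was -0.04, against 0.00 over all genes tested.

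As 1 value per clone, the chromosome 3 median relative to the median of all genes was 0.000 ± 0.039 in large clones L2 to L4 and -0.054 ± 0.083 in small clones (SD, n = 3 each). The difference of 0.054 had p = 0.5 in an exact two-sided permutation test, in which 20 arrangements allow no p below 0.1. It was 0.0065 without S3 (exact permutation p = 1) and -0.014 with L1 kept (exact permutation p = 0.914). Over 9 large and 7 small clones of the 3 lines, again without L1, the difference was -0.014 with p = 0.719 by exact permutation within lines (1600 arrangements). In HCT116 the 6 4N clones had chromosome 3 medians of 0.01 to 0.09 over 516 genes, and in CAL51 the 4 clones ran from -0.14 to 0.10 over 522 genes. No HCT116 or CAL51 clone had a median as low as that of L1 on the whole chromosome or that of S3 on 3p.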

How the data were processed

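Messenger RNA was sequenced from clones of 3 cancer cell lines, and 26 libraries entered the tests, 10 of them DLD1. The deposited values were FPKM per gene. Per the submitters' processing notes, fastp, HISAT2 version 2.0.5, featureCounts version 1.5.0-p3 and DESeq2 were used with GRCh38. All 496 members had the same coordinates in GENCODE release 29. Turned back through gene length, FPKM returned whole reads (tolerance 0.01) in 100% of genes, the source of the depths and of the voom alternative. The worth of 1 read covers counting error only, while the SDs and SEs given rest on differences between libraries.

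Members and gene lists were chosen with earlier results of these data known. Differences per clone were log2(FPKM + 1) minus the mean of the 3 2N libraries of its line. The fit took the 14835 genes that reached an FPKM of 1 in 3 or more libraries. It was made by limma (version 3.58.1, R version 4.3.3) with an intensity trend, 13 means (L1 with its own), two-sided tests and Benjamini-Hochberg adjustment over all of them. The p-values rest on the variation among clones. Named genes were the anchors, up to 4 members per list by level, the 10 lowest and 10 highest in L1 averaging at least 10 FPKM, up to 8 called members per direction (or, where none passed, the 5 lowest and 5 highest by the moderated statistic), and the genes at the level limit. UBE2E2, SHISA5, and the genes near the arm split were named by position or promoter after their values were seen. The alternatives covered pseudocounts, level limits, normalization, the libraries used and a replicate block. Large and small clones with the same number correlated by 0.022, 0.063 and -0.046, so the numbers do not pair them. The rest used Python version 3.11.15, with pandas (2.3.3) and matplotlib (3.10.9). Some genes chosen by the rule are not reported here. The limma procedure was tested on simulated data.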

Additional observations from a re-analysis of the deposited data

Results flagged for a closer look

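Among the 4 large DLD1 clones, 79 values (clone medians by arm, list medians and named genes) were examined for a clone other than L1 whose gap to its neighbour was more than 0.829 of the group's range. L1 itself got no such test, because its values chose the chromosome, but it stayed in the range. Over the whole chromosome its median was -0.28, against 0.02, -0.01 and -0.05 in L2 to L4. Where L1 lay that far off it filled the range, and no other clone was able to pass. Such values count in the 79 but test nothing about L2 to L4. There were 2 values past the limit. Chance gives about 1 in 20 for any clone of a group, a rate that does not hold for the 79 as a set. CPOX was highest in L2 at 148 FPKM, with 87.8 to 97.3 FPKM in the others. ARF4 was highest in L2 at 195 FPKM, with 126 to 138 FPKM in the others.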

How the results depend on the processing

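Without L1, the large-minus-small difference of clone medians in DLD1 was 0.054 and kept its sign under the other alternatives, with 0.0065 to 0.083 when 1 clone was left out in turn and its smallest value without S3. With L1 kept it was -0.014, since L1 is one of the large clones. Over the 3 lines the difference stayed below 0, from -0.037 with L1 kept to -0.005 without S2. The count of members called between large and small clones, 1 as reported, was 0 with a pseudocount of 0.1, 0 with a mean FPKM of at least 5, 0 with DLD1 libraries alone and 0 with limma voom. It was 2 with no filter on low values (both higher in large clones), and 0 to 2 when 1 clone was left out in turn. In the fit with the replicate block it was 0, and all genes called there were 0 in place of 74, but the numbers pair no clones. Leaving out 1 clone gave 30 to 91 called genes, with 30 without L4 and 33 without L3 or S3. MUC20 had adjusted p values of 0.00045 to 0.728 over its 13 alternatives. The count for 4N clones against 2N libraries was 0 under every alternative run, and all genes called ranged from 0 to 32, with 32 with no filter. The medians of the clones by chromosome and arm moved by less than 1 SD of same-sized clones under all alternatives set at the start. That SD took in L1 and S3 themselves, which widens it, so it is a loose limit for these clones. Relative to the clone median over all genes, L1 was at -0.27 on the chromosome and S3 at -0.30 on 3p. As a mean over members, L1 and S3 were both at -0.29 there. S3 on 3q was 0.080 against S1 and S2 (added after the data were seen), in place of 0.034 against the 2N mean. Depth was even enough that 1 read was worth at most 0.0400 FPKM per kb, and the number of clones limits the tests.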
